A study of Mus musculus with 4 samples.

Results

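Ribosomal protein pseudogenes are copies of the genes for ribosomal proteins, named by the parent gene's symbol and the ending "-ps". They were taken as every gene entry whose symbol starts as a ribosomal protein symbol (Rpl, Rps, Rplp or Rpsa) and ends in "-ps" with or without a number, and 311 of 55467 entries met this rule. The rule uses names and no measured value. Each was set beside its parent, the symbol before "-ps", which gave 64 distinct parents, of which 63 were in the files. RNA of cultured mouse cortical astrocytes was sequenced in 4 libraries, 2 from wild-type (WT) mice and 2 from mice without Cd38 (CD38 KO), the gene of a cell-surface enzyme that consumes NAD+. All cultures came from the cortex of pups aged 1 to 3 days and were grown for 14 days in medium with 10% serum, shaken for 12 h to shed loosely attached cells, replated and harvested 5 days later. The study asks how astrocyte CD38 in the young brain bears on synapse formation and on social memory in the adult. The labels give no strain, so loss of Cd38 and any strain difference between the genotypes cannot be told apart. They also do not say which animals or cultures the libraries of a genotype came from. A p-value here therefore measures the spread between these libraries alone, and that spread may be technical.

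The ribosome of the cytosol contains a large set of small proteins, divided between a small subunit (Rps) and a large subunit (Rpl). Their messenger RNAs (mRNAs) are among the most abundant in growing cells. A processed pseudogene arises when such an mRNA is copied back into DNA by the enzymes of a LINE-1 element and inserted elsewhere in the genome. The copy has no introns and lacks its parent's promoter, so it is read only where the new site provides for it, and most copies gather mutations. Young copies still resemble the parent so closely that a sequenced fragment can fit both.

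The members whose levels differed most between the genotypes were close copies of this kind. The start of 5 of them is shown, which leaves out Rps2-ps10, described below. These stretches show how few bases set a fragment of the pseudogene apart from one of the parent. Sequences come from GENCODE M21 on GRCm38 and run 5′ to 3′ on the pseudogene's own strand, and capitals mark the bases that differ from the parent's coding sequence. Positions count from 1 at the A of the parent's start codon, with the parent's base before the position and the pseudogene's base after it. The stretches lie at chrX:79195047-79195346 on the plus strand for Rps24-ps3 (C207T and G273C), chr8:107439263-107439562 on the minus strand for Rps26-ps1 (C30T and G270A), and chr9:72060937-72061236 on the plus strand for Rpl15-ps2 (G15A, T81C, C104T and A156G). They lie at chr5:22612883-22613182 on the minus strand for Rpl17-ps5 (G183A and T294C) and chr12:110898114-110898413 on the plus strand for Rps19-ps6 (C6T and T273C).
Rps24-ps3: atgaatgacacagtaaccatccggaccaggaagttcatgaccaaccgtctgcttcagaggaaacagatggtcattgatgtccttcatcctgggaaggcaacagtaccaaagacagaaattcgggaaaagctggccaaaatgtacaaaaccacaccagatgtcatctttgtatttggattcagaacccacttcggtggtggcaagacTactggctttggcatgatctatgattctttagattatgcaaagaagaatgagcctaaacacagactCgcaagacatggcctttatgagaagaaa
Rps26-ps1: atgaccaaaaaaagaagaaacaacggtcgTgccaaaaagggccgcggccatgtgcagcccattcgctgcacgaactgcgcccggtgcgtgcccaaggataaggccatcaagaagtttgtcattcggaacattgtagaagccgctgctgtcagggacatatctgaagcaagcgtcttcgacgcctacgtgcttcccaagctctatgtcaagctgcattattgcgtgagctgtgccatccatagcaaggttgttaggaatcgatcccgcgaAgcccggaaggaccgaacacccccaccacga
Rpl15-ps2: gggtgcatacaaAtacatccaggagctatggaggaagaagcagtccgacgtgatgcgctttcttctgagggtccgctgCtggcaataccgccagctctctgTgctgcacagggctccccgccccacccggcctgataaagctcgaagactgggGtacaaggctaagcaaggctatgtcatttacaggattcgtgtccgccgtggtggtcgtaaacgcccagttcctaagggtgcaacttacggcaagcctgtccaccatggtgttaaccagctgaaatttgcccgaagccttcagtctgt
Rpl17-ps5: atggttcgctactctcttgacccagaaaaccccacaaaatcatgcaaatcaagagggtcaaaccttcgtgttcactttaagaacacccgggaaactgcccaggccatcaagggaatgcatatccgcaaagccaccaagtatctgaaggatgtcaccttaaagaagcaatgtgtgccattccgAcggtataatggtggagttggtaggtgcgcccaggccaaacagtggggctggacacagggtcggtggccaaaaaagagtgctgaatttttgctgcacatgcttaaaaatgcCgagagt
Rps19-ps6: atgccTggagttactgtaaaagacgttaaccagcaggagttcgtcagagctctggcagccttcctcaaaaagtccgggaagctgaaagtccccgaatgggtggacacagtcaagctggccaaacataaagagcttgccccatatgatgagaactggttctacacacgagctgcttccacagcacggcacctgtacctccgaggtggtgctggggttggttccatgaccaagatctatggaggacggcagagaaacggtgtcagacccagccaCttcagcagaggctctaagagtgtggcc
Each stretch is 300 bases long and starts with the coding sequence, except that of Rpl15-ps2. Its annotated entry begins at position 3 of the parent's coding sequence, so the start codon is not within it. The longest run without a difference from the parent was between 146 bases in Rpl15-ps2 and 266 bases in Rps19-ps6.

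Most of the pseudogenes gave little or no signal. Values are FPKM, fragments scaled to transcript length and to sequencing depth, a level per length. Of the 311 pseudogenes, 157 were listed at 0 in all 4 libraries, 121 had some signal but a mean under 1 FPKM, and 33 reached a mean of 1 FPKM and were tested. In the single libraries, 98 and 98 were above 0 in WT and 100 and 109 in CD38 KO, and 59 were above 0 in all 4. Only 8 reached a mean of 10 FPKM. Family size and expression did not go together in the extremes. Rps12 and Rpl31 have 24 pseudogenes each, of which 0 and 1 were tested, whereas Rps2 has 12, of which 2 were tested. By annotation, 295 of the 311 are processed pseudogenes, 8 are transcribed processed pseudogenes, 7 are protein-coding genes and 1 is a lincRNA. The 33 tested pseudogenes lay on 17 different chromosomes, 12 of them inside the span of another gene, 10 on the opposite strand to it and 2 on the same strand.

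In all, 13064 genes were tested, and 14.4% of them differed between the genotypes (limma on log2(FPKM + 1), adjusted p under 0.05), 8.00% being higher in CD38 KO and 6.35% lower. The 4 libraries held an estimated 26812981 to 29051220 fragments. WT levels of Cd38, the targeted gene, were 3.13 and 3.45 FPKM, against 0.0222 FPKM in both CD38 KO libraries (limma, log2 change -2.07, SE 0.13, adjusted p = 0.000575). All 10 astrocyte markers were tested and their summed FPKM was 4664 to 4717 in WT and 3858 to 3956 in CD38 KO, with 7 of the 10 lower and 3 higher in both CD38 KO libraries than in both WT libraries. Summed FPKM of 12 microglia and macrophage markers was 32.6 to 35.2 in WT and 235 to 255 in CD38 KO, with 11 of the 12 higher in both CD38 KO libraries than in both WT libraries and none at 0 throughout. Neuron markers summed to 106 to 118 FPKM in WT and 78.1 to 80.9 in CD38 KO, and oligodendrocyte lineage markers to 168 to 175 and 137 to 150. Fibroblast and meningeal markers summed to 28.3 to 36.9 FPKM in WT and 34.9 to 57.3 in CD38 KO, ependymal markers to 39.4 to 40.4 and 58.0 to 60.8, and endothelial markers to under 2 FPKM in every library. Apart from the fibroblast and meningeal sums, which overlapped, and the low endothelial ones, these sums move with the genotype beside every result below. The part of any marker set in the pseudogenes' levels was not tested. In bulk RNA, fewer cells of a type and less RNA per cell cannot be told apart.

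Pseudogenes carried a small share of the family's signal, and whether it was higher or lower in CD38 KO turned on Rps24-ps3. Their summed level was 340 and 343 FPKM in WT and 549 and 511 FPKM in CD38 KO, whereas the summed level of the parents was 23304 and 22929 FPKM in WT and 23871 and 22668 in CD38 KO. The pseudogenes thus held 1.44% and 1.47% of the summed FPKM of parents and pseudogenes in WT, and 2.25% and 2.20% in CD38 KO. Both CD38 KO libraries lay above both WT libraries, while the parents' sums overlapped. Without Rps24-ps3 the order turned. The other pseudogenes summed to 339 and 341 FPKM in WT and 286 and 254 FPKM in CD38 KO, which was 1.43% and 1.46% of the family's FPKM against 1.18% and 1.11%. These sums still hold Rps26-ps1, at 78.3 and 67.5 FPKM in WT and 2.59 and 1.84 FPKM in CD38 KO. The order without both was not examined, so it does not describe the remaining pseudogenes in general. Just 4 pseudogenes (Rps24-ps3, Rps2-ps13, Rps26-ps1 and Rps2-ps10) made up 67.2% and 65.9% of the pseudogenes' FPKM in WT and 79.0% and 80.5% in CD38 KO.

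Of the 33 tested pseudogenes, 2 rose and 6 fell in CD38 KO (limma, adjusted p under 0.05), which is 24.2% against 14.4% of all tested genes. By direction, 8.00% of all tested genes rose and 6.35% fell. Over the 33 the median log2 change was -0.13, against 0.00 over all tested genes, and 14 had an unadjusted p under 0.05, 42.4% against 30.3% of all tested genes. In 4 of the 33, 12.1%, the change was called and at least 2 on the log2 scale in either direction, against 0.942% of all tested genes. Among these 4, Rps2-ps10 (mean 0.366 FPKM in WT) and Rpl15-ps2 (mean 0.0774 FPKM in CD38 KO) passed the filter only through the other genotype. A filter on the mean of all libraries can let in low genes because they change, so these shares are tied to it. The range of the pseudogenes ran from -4.53 for Rps26-ps1 to 6.51 for Rps24-ps3. On the log2(FPKM + 1) scale these were the lowest and the highest change among all 13064 tested genes. That scale understates changes of low genes. As a ratio of means, Rps26-ps1 was 32.9-fold lower and Cd38 149-fold lower. The other 25 tested pseudogenes had log2 changes of -0.70 to 0.38. Both CD38 KO libraries lay above or below both WT libraries in 19 of the 33, and in 7821 of the 13064 tested genes.

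**Figure D1:**
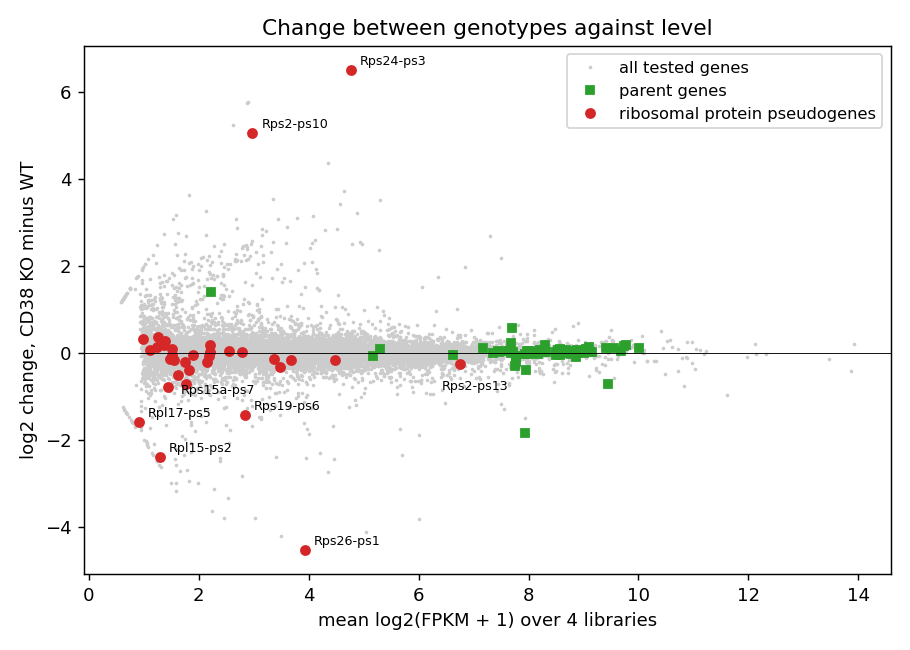
Log2 change, CD38 KO minus WT (vertical axis), against mean log2(FPKM + 1) over the 4 libraries (horizontal axis), with all tested genes in grey, parent genes as green squares and tested ribosomal protein pseudogenes as red points, the called ones named. Rps24-ps3 at 6.51 and Rps26-ps1 at -4.53 mark the top and the bottom of the plot, and most of the other tested pseudogenes lie near 0.

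Rps24-ps3 (ENSMUSG00000081049, GRCm38 chromosome X, 79195047 to 79195448, plus strand, in no other gene) was the pseudogene that rose most. Its parent Rps24 encodes a protein of the small subunit that is mutated in some families with Diamond-Blackfan anaemia. Rps24-ps3 stood at 1.74 and 1.98 FPKM in the WT libraries and 263 and 257 FPKM in CD38 KO. These values correspond to 11 and 13 fragments in WT and to 1772 and 1747 in CD38 KO. The CD38 KO libraries lay close together and far above both WT libraries. The mean went from 1.86 ± 0.173 to 260 ± 4.08 FPKM (SD, n = 2 per genotype; limma, log2 change 6.51, SE 0.06, adjusted p = 2.18e-06). The ratio of its fragments, scaled to depth, was 139 (95% interval 93.2 to 217, counting error only). From 0.193% and 0.222% of the level of Rps24 in WT, it came to 46.0% and 49.3% in CD38 KO.

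Rps24 itself moved the other way. It measured 897 and 891 FPKM in WT against 572 and 522 FPKM in CD38 KO, with both CD38 KO libraries below both WT libraries. This is 1.63-fold lower (894 ± 4.37 to 547 ± 35.5 FPKM, SD, n = 2; limma, log2 change -0.71, SE 0.05, adjusted p = 0.00114). The sum of Rps24 and Rps24-ps3 spanned a narrower range, 899 and 893 FPKM in WT and 835 and 779 in CD38 KO. Both CD38 KO sums were still below both WT sums. Sums of a parent and its pseudogene, here and below, are not sums of fragments, as each level is scaled to its own transcript length. How fragments that fit both the gene and its pseudogene were assigned is not given in the sources used here, so the 2 levels are uncertain against each other.

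Rps2-ps10 (ENSMUSG00000091957, GRCm38 chromosome 18, 61259008 to 61259972, minus strand) was the other pseudogene that rose. Its parent Rps2 encodes a protein near the mRNA entry channel of the small subunit. Rps2-ps10 had WT levels of 0.420 and 0.311 FPKM and CD38 KO levels of 48.2 and 40.8 FPKM. Both CD38 KO libraries were far above both WT libraries, and the mean was 122-fold higher (0.366 ± 0.0767 to 44.5 ± 5.23 FPKM, SD, n = 2; limma, log2 change 5.05, SE 0.10, adjusted p = 2.82e-05). It went from 0.151% and 0.108% to 21.3% and 20.0% of the level of Rps2. It lies in an intron of Pde6a, on the opposite strand, and Pde6a, a gene of rod photoreceptors, was too low to be tested.

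Rps2 has a second expressed pseudogene, Rps2-ps13 (ENSMUSG00000081684, chromosome X, 52898588 to 52899469, plus strand, in no other gene), which was among the most abundant of all in both genotypes. Rps2-ps13 stood at 115 and 119 FPKM in the WT libraries and 102 and 93.1 FPKM in CD38 KO, resting on 2202, 2387, 2117 and 1931 fragments. The CD38 KO libraries were lower by little (limma, log2 change -0.25, SE 0.06, adjusted p = 0.0424, n = 2 per genotype). Rps2 measured 277 and 287 FPKM in WT against 226 and 204 FPKM in CD38 KO (limma, log2 change -0.39, adjusted p = 0.0122), so that Rps2-ps13 was at 41.4% and 41.3% of Rps2 in WT and 45.3% and 45.6% in CD38 KO. The sum of Rps2 and Rps2-ps10 was 278 and 287 FPKM in WT and 274 and 245 FPKM in CD38 KO. Both calls were near the threshold. That of Rps2-ps13 was lost without any 1 of the 4 libraries (adjusted p up to 0.192) and with the replicate number as a block (adjusted p = 0.0936), and that of Rps2 without WT 1, WT 2 or CD38 KO 2.

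Rps26-ps1 (ENSMUSG00000059775, GRCm38 chromosome 8, 107439131 to 107439579, minus strand) fell most on the log2(FPKM + 1) scale. Rps26 encodes a protein at the mRNA exit channel of the small subunit, and is another gene of Diamond-Blackfan anaemia. Rps26-ps1 had WT levels of 78.3 and 67.5 FPKM and CD38 KO levels of 2.59 and 1.84 FPKM. Both CD38 KO libraries were far below both WT libraries, and the mean was 32.9-fold lower (72.9 ± 7.64 to 2.21 ± 0.532 FPKM, SD, n = 2; limma, log2 change -4.53, SE 0.13, adjusted p = 4.88e-05). It went from 41.4% and 36.2% of the level of Rps26 in WT to 1.13% and 0.859% in CD38 KO. Rps26 stood at 189 and 187 FPKM in the WT libraries and 228 and 214 FPKM in CD38 KO (limma, log2 change 0.23, adjusted p = 0.0293), a call that was lost without any 1 of the 4 libraries (adjusted p up to 0.155). The sum of the pair was 267 and 254 FPKM in WT and 231 and 216 FPKM in CD38 KO. Rps26-ps1 lies in an intron of Wwp2, a ubiquitin ligase gene on the opposite strand, which was at 11.7 FPKM in both WT libraries and 11.1 and 11.0 in CD38 KO (limma, adjusted p = 0.466).

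**Figure D2:**
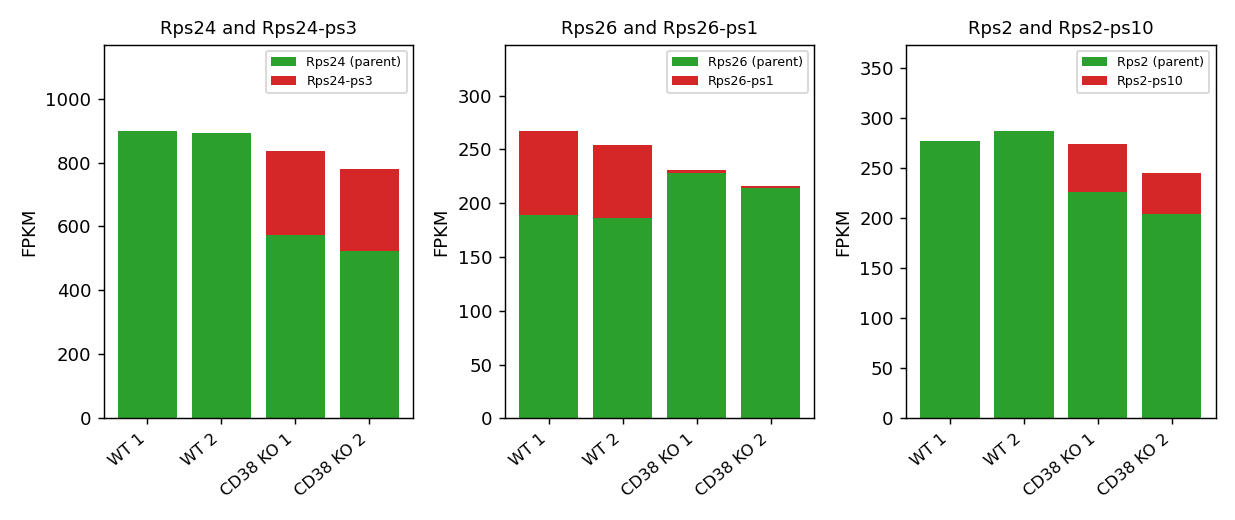
FPKM (vertical axis) of Rps24, Rps26 and Rps2 (green) with Rps24-ps3, Rps26-ps1 and Rps2-ps10 (red) stacked on them, 1 bar per library. Rps24-ps3 and Rps2-ps10 were high where their parents were lower, and Rps26-ps1 was low where Rps26 was higher.

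A pair of pseudogenes of large-subunit genes had signal listed almost solely in WT. Rpl15-ps2 (ENSMUSG00000098915, chromosome 9, 72060937 to 72061549, plus strand) measured 4.92 and 4.31 FPKM in WT against 0 and 0.155 FPKM in CD38 KO, which is 59 and 54 fragments against 0 and 2. Rpl17-ps5 (ENSMUSG00000081855, chromosome 5, 22612628 to 22613182, minus strand) had WT levels of 2.30 and 2.21 FPKM and CD38 KO levels of 0.179 and 0 FPKM, which is 24 and 24 fragments against 2 and 0. Both WT libraries lay above both CD38 KO libraries in each case. On the log2(FPKM + 1) scale, which understates changes of low genes, Rpl15-ps2 fell by 2.38 (limma, SE 0.14, adjusted p = 0.000426) and Rpl17-ps5 fell by 1.58 (limma, SE 0.15, adjusted p = 0.00279; n = 2 per genotype). The ratio of WT over CD38 KO fragments, scaled to depth, was 59.6 for Rpl15-ps2 (95% interval 16.1 to 498) and 25.3 for Rpl17-ps5 (6.64 to 215). These intervals hold counting error only. All stretches of 50, 75 and 100 bases of Rpl17-ps5 were also found in other genes, so stretches of these lengths cannot be assigned to it alone. Longer ones were not looked up.

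Their parents did not pass the test. Rpl15, a large-subunit protein gene, stood at 137 and 136 FPKM in the WT libraries and 153 and 145 FPKM in CD38 KO (limma, adjusted p = 0.126). Rpl17, whose protein lines the exit tunnel of the large subunit, measured 362 and 357 FPKM in WT against 393 and 361 FPKM in CD38 KO (limma, adjusted p = 0.452). Neither did the genes that hold the pseudogenes. Rpl15-ps2 lies in an intron of the transcription factor gene Tcf12 on the opposite strand, with 35.7, 36.3, 33.9 and 33.4 FPKM (adjusted p = 0.236, limma). Rpl17-ps5 lies in an intron of the lincRNA gene 6030443J06Rik on the opposite strand, with 0.901, 0.835, 1.12 and 1.15 FPKM in the same order of libraries (adjusted p = 0.387, limma).

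Rps19-ps6 and Rps15a-ps7, copies of small-subunit genes, fell by less. Rps19-ps6 (ENSMUSG00000096942, chromosome 12, 110898114 to 110898551, plus strand) had WT levels of 11.1 and 10.3 FPKM and CD38 KO levels of 4.36 and 2.55 FPKM, from 81, 78, 34 and 20 fragments. The libraries of the genotypes did not overlap, and the mean went from 10.7 ± 0.570 to 3.46 ± 1.28 FPKM (SD, n = 2; limma, log2 change -1.42, SE 0.19, adjusted p = 0.00857). The call was lost without WT 1 (adjusted p = 0.0734) or WT 2 (adjusted p = 0.0703), within a range of 0.00588 to 0.0842 over the alternatives. It lies in an intron of Tecpr2, an autophagy gene read on the same strand, at 7.12 and 7.10 FPKM in WT and 8.14 and 8.47 FPKM in CD38 KO (limma, adjusted p = 0.118). Rps15a-ps7 (ENSMUSG00000081087, chromosome 2, 152185291 to 152185682, minus strand, in no other gene) stood at 2.14 and 3.02 FPKM in the WT libraries and 0.929 and 1.23 FPKM in CD38 KO, from 13, 19, 6 and 8 fragments. Here too the genotypes did not overlap (limma, log2 change -0.78, SE 0.17, adjusted p = 0.0354), but the call was lost without any 1 of the 4 libraries (adjusted p up to 0.179). The parents Rps19, the gene most often mutated in Diamond-Blackfan anaemia, and Rps15a had log2 changes of 0.14 and -0.09 and did not pass the test (limma, adjusted p = 0.128 and 0.229).

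**Figure D3:**
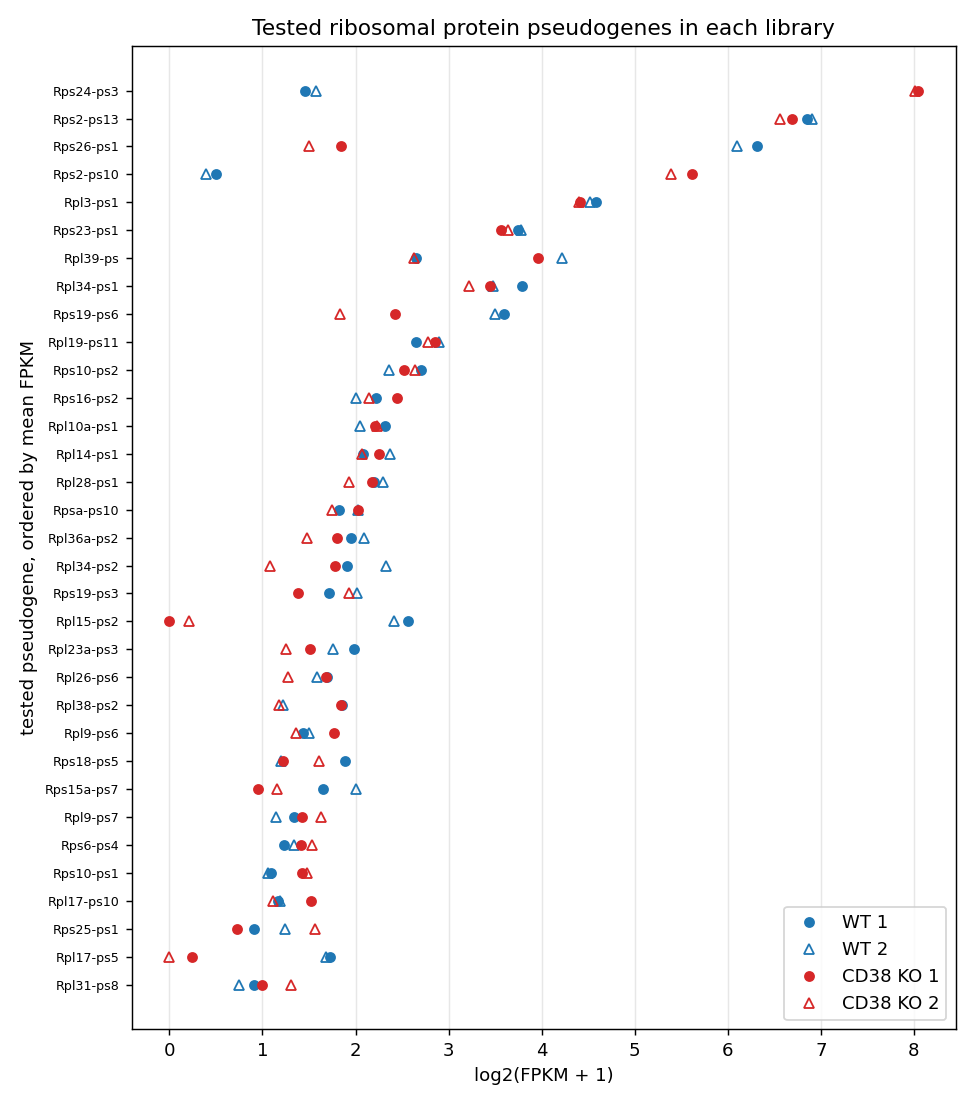
The 33 tested ribosomal protein pseudogenes in order of mean FPKM (vertical axis) with their log2(FPKM + 1) in each library (horizontal axis), WT in blue and CD38 KO in red, 1 marker per library. Rps24-ps3 and Rps2-ps10 lie far to the right in CD38 KO and Rps26-ps1 far to the right in WT, while the genotypes lie close together for most others.

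Of the 8 called pseudogenes, 5 lay inside another gene, 4 of them on the opposite strand and 1 on the same strand. They came from 7 different parents, of which 3 (Rps24, Rps26 and Rps2) were called themselves. Rps24 and Rps26 changed in the opposite direction to the called pseudogene, and Rps2 fell as Rps2-ps13 did and against Rps2-ps10. Over all parents, 9 of 63 were called, 4 higher and 5 lower, which is 14.3% and near the 14.4% of all tested genes, with a median log2 change of 0.04. Rps4l, among the 4 higher and with the highest log2 change of the parents (1.40), is itself annotated as a transcribed processed pseudogene. Among the cytosolic ribosomal protein genes as a whole, 83 of 89 were tested, of which 6 rose and 7 fell, 15.7%. That list was drawn up by symbol, and it too holds Rps4l and other entries annotated as processed pseudogenes. Rpl26, a large-subunit gene, had the lowest log2 change of the parents. It went from 461 ± 1.31 to 129 ± 2.66 FPKM (SD, n = 2; limma, log2 change -1.83, adjusted p = 2.82e-05), while its tested pseudogene Rpl26-ps6 was at 2.23 and 2.01 FPKM in WT and 2.22 and 1.42 FPKM in CD38 KO and did not pass the test.

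Of the 10 most abundant tested pseudogenes, 5 did not pass the test. Rpl3-ps1, a copy of a large-subunit gene on chromosome X, had 23.0 and 22.0 FPKM in WT and 20.2 FPKM in both CD38 KO libraries (limma, adjusted p = 0.138). Rps23-ps1, a copy of a gene of the decoding centre, measured 12.4 and 12.8 FPKM in WT against 10.8 and 11.4 FPKM in CD38 KO (limma, adjusted p = 0.157). Rpl34-ps1 had WT levels of 12.8 and 10.2 FPKM and CD38 KO levels of 9.87 and 8.31 FPKM (limma, adjusted p = 0.185). In all 3 the CD38 KO libraries lay below those of WT, and none of the 3 was called. Such separation, in either direction, was seen in 7821 of the 13064 tested genes. Rpl19-ps11 stood at 5.26 and 6.47 FPKM in the WT libraries and 6.21 and 5.86 FPKM in CD38 KO (limma, adjusted p = 0.841). Rpl39-ps varied within each genotype, at 5.25 and 17.6 FPKM in WT and at 14.6 and 5.19 in CD38 KO (limma, adjusted p = 0.907), and its transcript of 151 bases is shorter than the 166 to 170 bases that the values take off a transcript's length. Of the 3 tested pseudogenes on chromosome X, Rps24-ps3 rose, Rps2-ps13 fell and Rpl3-ps1 was not called.

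Among pseudogenes, levels went with closeness to the parent. Of the 311, 309 were aligned to a transcript of their parent, and in 304 of these the alignment covered at least 100 coding bases. Over the 304, the median identity to the parent's coding sequence was 99.4% in the 33 tested pseudogenes (90.3% to 100%), 98.1% in 116 with signal that were not tested, and 93.2% in 155 listed at 0 in every library. Every stretch of 75 bases of the 309 was then looked up in the transcripts of all other genes. The median share found unchanged elsewhere was 81.2% in the tested pseudogenes, 31.6% in those with less signal and 2.99% in those at 0. Of the tested pseudogenes, 10 of 33 had no 75-base stretch of their own, against 6 of 120 with less signal and 17 of 156 at 0. This measure was thus lowest in the middle group. A reading frame from the parent's start to its stop lay within the annotated entry in 22 of 33 tested pseudogenes. It did so in 46 of 120 with less signal and in 41 of 156 at 0. Entries that begin after the start or end before the stop were not counted, even with an open frame. Rpl3-ps1, open over 403 of 403 codons, is such a case. The counts thus reflect where entries end as well as loss of the frame. All these values are descriptions of groups that share parents. A fragment that fits the parent as well can be counted for either, so the level of a close copy is less certain than that of a diverged one.

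**Figure D4:**
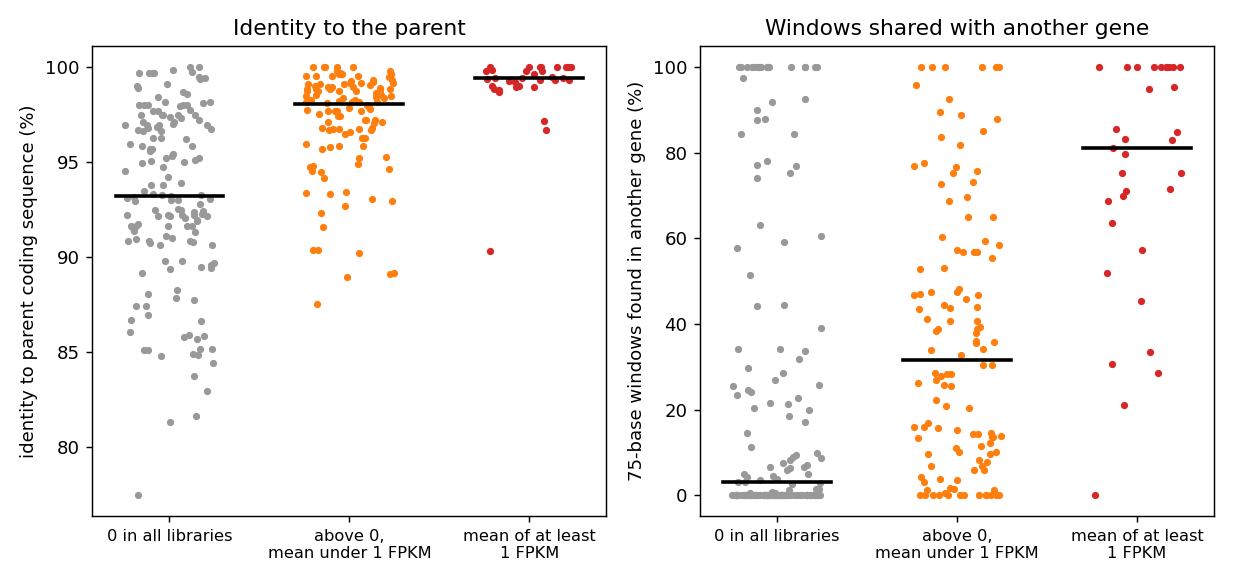
Identity to the parent's coding sequence in percent (left) and share of 75-base stretches found in another gene in percent (right), 1 point per pseudogene (left, those with at least 100 aligned coding bases), in 3 groups by level with the median as a line. Identity rose from a median of 93.2% in those at 0 to 99.4% in those of at least 1 FPKM, and the shared part from 2.99% to 81.2%.

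The called pseudogenes were close copies too, yet differed in how much sequence was theirs alone. Rps24-ps3 was 99.0% identical to the coding sequence of Rps24, with 4 substitutions, and 45.4% of its 75-base stretches were found in another gene, the lowest share of the 8. In Rps15a-ps7 the share was 51.9%, in Rpl15-ps2 71.1%, in Rps26-ps1 71.5%, in Rps19-ps6 83.0%, in Rps2-ps13 83.3% and in Rps2-ps10 95.3%. All stretches of 50, 75 and 100 bases of Rpl17-ps5 were found in other genes. A full reading frame lay within the entry in 6 of the 8. The entry of Rpl15-ps2 begins at position 3 of the parent's coding sequence, so its start codon was not seen. In Rps15a-ps7 a stop follows after 37 of 130 codons. Values between 0 and 10 fragments were whole numbers of fragments, within 0.1, in 98.2% of 271 cases.

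For comparison, 1274 other genes carry a symbol ending in "-ps", of which 47 were tested. Among those, 4 rose and 6 fell, 21.3% against 24.2% of the ribosomal protein pseudogenes. A called log2 change of at least 2 in either direction was seen in 2 of them, 4.26%, against 4 ribosomal protein pseudogenes, 12.1%. Of all annotated processed pseudogenes, those of ribosomal proteins included, 237 were tested and 18.1% were called. Such a change was seen in 19 of the 237, 8.02%, against 0.942% of all tested genes. The differences between these lists were not tested, and each share is tied to the same filter.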

How the data were processed

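RNA was measured by stranded polyA sequencing in 4 libraries, 2 per genotype. The deposited values are FPKM per gene, per the file headers. Their build is GRCm38 and the tools named, with no role, are Cufflinks 2.2.1, STAR 2.7.0f and bcl2fastq 2.17, per the submitters' processing notes. How fragments that map to several places were treated, which annotation release was used and whether libraries were scaled to each other is not given in the sources used here.

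The 13064 genes whose mean reached 1 FPKM were tested for genotype on log2(FPKM + 1) with limma 3.58.1 (R 4.3.3), using trended moderation, two-sided, and p-values were adjusted over all of them by Benjamini-Hochberg, with a threshold of 0.05. Fold changes in FPKM are ratios of means without the added 1. The fit was tested on simulated data. Low FPKM values step by whole fragments, so depth was estimated from genes with 1 transcript of over 600 bases, and 91.7% to 92.4% of low values then came within 0.1 of whole fragments. Fragments were derived for pseudogenes with 1 transcript of at least 300 bases, 288 of 311. Ratios of fragments carry exact 95% intervals for counting error only. Positions and sequences come from GENCODE M21 (GRCm38), which matched all 311 pseudogenes. They were aligned to their parents' transcripts with Biopython 1.88, and stretches of 50, 75 and 100 bases were looked up in all annotated transcripts on both strands, not in the whole genome. Other steps used Python 3.11.15, pandas 2.3.3, numpy 2.4.6, scipy 1.17.1 and matplotlib 3.10.9.

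The members and lists were chosen with earlier results of these data known. The genes named are Cd38, the called pseudogenes, the 10 tested pseudogenes of highest mean FPKM, the 3 of highest mean FPKM under the filter, and the parents and enclosing genes of these. Rpl26, Rpl26-ps6, Rps4l and the pseudogenes otherwise named in the closing section were chosen after their values were seen. Alternatives were values of 0.1 and 0.5 added before the log, no filter, a filter at 5 FPKM, quantile and median-of-ratios scaling, a replicate block, moderation without trend or robust, and each library left out in turn. A block with crossed numbers and sums without Rps24-ps3 were chosen after seeing the data.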

Additional observations from a re-analysis of the deposited data

How the results depend on the processing

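Of the 8 called pseudogenes, 5 (Rps24-ps3, Rps2-ps10, Rps26-ps1, Rpl15-ps2 and Rpl17-ps5) were called in every alternative that tested them. The count of pseudogenes that rose was 2 to 3 over all settings, 3 with no filter and, with Rps10-ps1 added, without a trend. The count that fell went from 6 to 3 with no filter and to 3 with a filter at 5 FPKM, where only 10 pseudogenes were tested, and to 3 to 4 with 1 library left out. With no filter 154 pseudogenes were fitted and 6 called, 5 of them shared, the other being Rps18-ps4. The share of all fitted genes called also moved with the setting. It was 2.78% with no filter, 15.8% with the filter at 5 FPKM and 11% without a trend, against 14.4% in the fit reported above. Parents that rose went from 4 to 2 with no filter, with the replicate block and without a trend, and to 1 to 2 with 1 library left out. Parents that fell went from 5 to 3 with no filter and to 2 to 3 with 1 library left out. Over all genes, 430 rose and 312 fell with no filter, 610 and 427 with the replicate block, and 306 to 458 and 225 to 284 with 1 library left out. Those fits take the lone library to vary as the other genotype does. The labels pair no samples by number. Same-numbered libraries deviated with a correlation of -0.16. With the block, 7 pseudogenes were called, all shared, and a crossed block called 9. The sign turned for Rpl39-ps, with log2 changes of -0.92 to 0.65 when 1 library was left out, for Rpl19-ps11, with -0.012 under quantile scaling and -0.087 to 0.17 when 1 library was left out, and for Rpl34, with -0.0077 to 0.10 when 1 library was left out. None of these was called, and the cause was not tested. Counting parents that code for protein only left each library's share of pseudogene FPKM within the spread. Leaving Rps24-ps3 out of the sums, chosen after seeing the data, took the CD38 KO shares to 1.18% and 1.11%, below those of WT. Rps26-ps1 was still in those sums. Depth limits the rare pseudogenes, of which 62 rested on 1 to 3 fragments in total.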

Other observations

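Below the filter, the pseudogenes of highest mean level were Rpl36-ps12, Rps29-ps and Rpl36-ps2. Rpl36-ps12 measured 0.332 and 0.643 FPKM in WT against 1.25 and 0.930 FPKM in CD38 KO, which is 2, 4, 8 and 6 fragments, and it was not tested. Rps29-ps was at 1.42 FPKM in WT 1 and 1.39 FPKM in CD38 KO 2 and listed at 0 in WT 2 and CD38 KO 1, on a transcript of 172 bases. Rpl36-ps2 was at 0.509, 0.993, 0.482 and 0.238 FPKM in the order WT 1, WT 2, CD38 KO 1 and CD38 KO 2. Rps18-ps4, the member annotated as a lincRNA, was listed at 0 in both WT libraries and at 0.206 and 0.207 FPKM in CD38 KO.

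Rps19-ps1 and Rps19-ps2 have the same sequence and stood at the same value in every library, 0.137 FPKM in WT 1, 0 in WT 2 and CD38 KO 1, and 0.510 FPKM in CD38 KO 2. They lie at 53213730 and 52902793 on chromosome 14. The last value corresponds to 4 fragments for each copy. Such values cannot be assigned to one copy or the other.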
